A study of Caenorhabditis elegans with 4 samples.

Results

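Nucleotide excision repair was followed through 7 genes in the cisplatin transcriptomes of *C. elegans*, namely *xpc-1*, *rad-23*, *csb-1*, *xpa-1*, *xpf-1*, *ercc-1* and *xpg-1*. They were taken from the 15408 rows of the deposited table by the gene name written there. That name found 6 of them, and *xpf-1*, which the table lists only by its sequence name C47D12.8, was added through its ID in the current annotation. RNA came from 4 populations of wild-type N2 animals of all stages, fed on OP50 bacteria at 20°C. Cisplatin was given to 2 of them, at 60 µg/ml and over 24 h, and 2 received no drug. Each group has a replicate 1 and a replicate 2, called biological replicates by the submitters. Levels are in FPKM, that is, fragments mapped to a gene corrected for its exon length and for the size of the library. Levels of different genes can so be set side by side, as far as the exon length used is right. Each population contained every stage from embryo to adult, and in such whole-animal RNA fewer cells of a type and less RNA per cell cannot be told apart.

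Nucleotide excision repair removes bulky lesions that distort the DNA helix, among them the crosslinks that cisplatin makes between neighbouring guanines of the same strand. XPC-1 with RAD-23 senses distortion anywhere in the genome, whereas CSB-1 and CSA-1 act where a lesion stalls RNA polymerase in a transcribed gene. Both routes then share TFIIH, which opens the helix, XPA-1, which verifies the damage, and the nucleases XPF-1/ERCC-1 and XPG-1, which cut the damaged strand on either side of the lesion. In *C. elegans* the genome-wide route is known mainly for protecting germ cells and the transcription-coupled route for protecting somatic tissue. XPF-1 with ERCC-1 also acts in crosslink repair and meiotic recombination outside this pathway.

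With cisplatin, 4 of the 7 genes had both treated libraries above both controls on the deposited FPKM scale: *csb-1*, *xpf-1*, *xpa-1* and *xpc-1*. Such a pattern was seen in 15.1% of all 15065 genes tested. No member had both treated libraries below both controls, which 4.21% of all genes had. The estimated changes were between 1.07-fold for *rad-23* and 1.72-fold for *csb-1*, and none of the 7 passed limma's adjusted p of 0.05. No gene of the whole table passed either, 0% in all. At an unadjusted limma p of at most 0.05 there was 1 member, *xpf-1*, where 1.12% of all genes were higher and 0.445% lower. The excess of the 4 genes depended on how libraries were scaled to each other, as described for each gene.

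**Figure D1:**
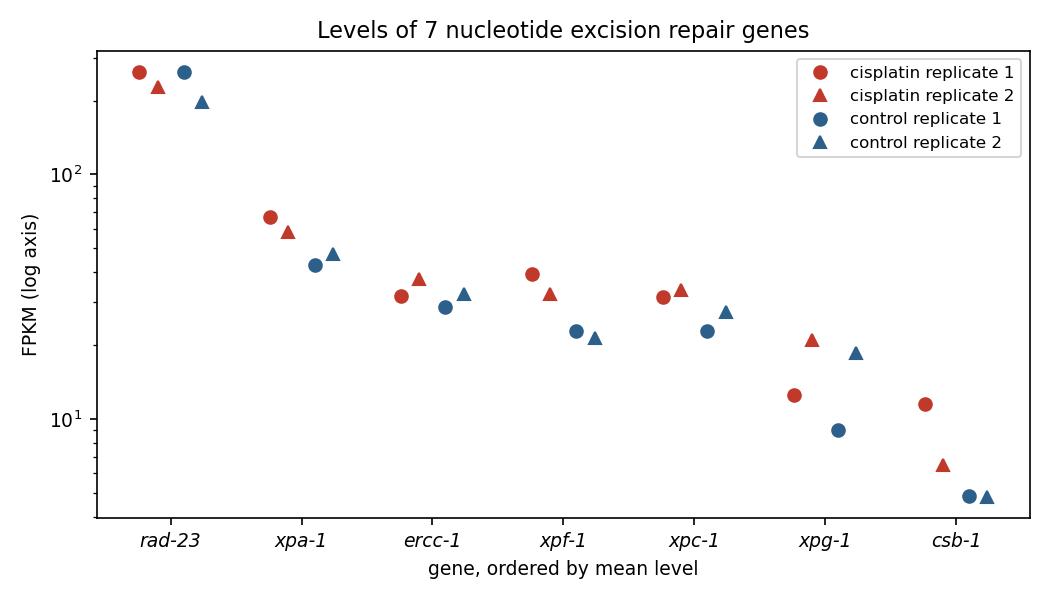
FPKM of the 7 genes on a log axis in each of the 4 libraries, with colour for the group and symbol for the replicate number, and no averaging. *rad-23* lies far above the rest at 198 to 262 FPKM and *csb-1* lowest at 4.83 to 11.5 FPKM, and in *csb-1*, *xpf-1*, *xpa-1* and *xpc-1* both cisplatin points are above both control points.

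The members spanned a wide range of abundance, and *rad-23* stood apart from the rest. Its mean of 237 FPKM was above 96.3% of the genes tested and 34.3-fold that of *csb-1*. The exon model behind the FPKM of *rad-23* and *csb-1* is not given, so this fold is uncertain. *xpa-1* came next, between 42.5 and 66.8 FPKM, without overlapping *rad-23* above it or *ercc-1* below it. *ercc-1* (28.6 to 37.5 FPKM), *xpf-1* (21.5 to 39.1 FPKM) and *xpc-1* (22.99 to 33.6 FPKM) overlapped each other when libraries are mixed. Within each of the 4 libraries *ercc-1* was above *xpc-1*, while *xpf-1* changed its place among them. *xpg-1* was below *xpc-1* in all 4 libraries and *csb-1* was below *xpg-1* in all 4, although the ranges of *xpg-1* (8.999 to 21.0 FPKM) and *csb-1* overlap when libraries are mixed. Across the 4 libraries the highest value was 1.31 times the lowest for *ercc-1* and 2.38 times the lowest for *csb-1*. As to the depth behind these levels, the bounds that the authors list with each FPKM, if taken as the 95% interval of a Poisson count, correspond to between 114 and 188 fragments for *ercc-1*, 132 and 272 for *csb-1* and 1760 and 2403 for *rad-23*. The bounds cover counting within a library and not the spread between populations.

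The sensors of the genome-wide route gave unlike estimates with overlapping intervals, and the difference between them was not tested. *xpc-1* (Y76B12C.2) encodes the damage-binding protein, on chromosome IV from 1993089 to 2009027 in WBcel235 with 10 exons. Its levels were 31.5 and 33.6 FPKM in cisplatin replicates 1 and 2, against 22.99 and 27.4 FPKM in the controls. The groups did not overlap, but the lower bound of cisplatin replicate 1, at 28.8 FPKM, was under the upper bound of control replicate 2, at 29.3 FPKM. The log2 fold change, on the scale of log2(FPKM + 0.5) used throughout, was 0.37 (standard error 0.253, 95% interval -0.24 to 0.98). Once the libraries had been brought to equal median FPKM it was 0.16, and the groups overlapped.

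*rad-23* (ZK20.3) encodes a protein with a ubiquitin-like domain that partners XPC-1 and also carries ubiquitinated proteins to the proteasome. It lies on chromosome II from 11651262 to 11652729. Treated libraries had 261 and 227 FPKM, and control libraries 262 and 198 FPKM. In this gene replicate 1 was above replicate 2 in both groups, and the treated and control values overlapped. Its log2 fold change was 0.10 (standard error 0.216, 95% interval -0.42 to 0.62). Its direction was not settled: it was -0.11 with equal medians, and -0.10 and 0.00 without control replicate 2 and without cisplatin replicate 1. The deposited condition FPKM, which is the authors' own value over both libraries, was 235.15 with cisplatin and 259.7 without, the opposite order to the library means of 244 and 230.

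*csb-1* (F53H4.1), the SWI/SNF-type ATPase that recognises stalled RNA polymerase, had the largest estimated change of the 7 genes, and the change differed most between the same-numbered pairs of libraries. It lies on chromosome X from 15861294 to 15865918 with 10 exons. Treated libraries had 11.5 and 6.51 FPKM, and each control had 4.83 FPKM. The excess came mostly from cisplatin replicate 1, which was above both controls beyond the authors' bounds, whereas in cisplatin replicate 2 the lower bound of 5.50 FPKM was under the upper bounds of 5.65 and 5.67 FPKM in the controls. Over all libraries the log2 fold change was 0.78 (standard error 0.562, 95% interval -0.58 to 2.14). It was 1.17 between the libraries numbered 1 and 0.40 between those numbered 2. Without cisplatin replicate 1 it was 0.40 and without cisplatin replicate 2 it was 1.17. With quantile normalization it was 0.62 and with equal medians 0.59, and on both scales the groups overlapped.

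*csa-1* (D2013.3), the partner of CSB-1 and no member of the chosen set, was near the lower end of what was measured. Its 1.69 and 1.94 FPKM in treated animals overlapped the 0.907 and 1.78 FPKM of the controls. *csb-1* exceeded it in every library, by 6.79 and 3.36 times with cisplatin and 5.33 and 2.72 times without.

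*xpa-1* (K07G5.2), the damage verifier and scaffold of the incision complex, was higher with cisplatin in both replicates. It is a small gene of 5 exons on chromosome I from 7159714 to 7160917, with 241 codons. Its levels were 66.8 and 58.0 FPKM in treated animals against 42.5 and 47.2 FPKM in controls, and the lowest treated library was above the highest control. Its log2 fold change was 0.47 (standard error 0.208, 95% interval -0.03 to 0.97). It ranged from 0.37 to 0.57 with 1 library left out and was 0.26 with equal medians, where the groups overlapped. In all 4 libraries the FPKM of *xpa-1* lies above the upper bound listed for it, so its level is less certain than the bounds state.

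The nuclease partners XPF-1 and ERCC-1 work as a heterodimer, yet their transcripts gave different values. *xpf-1* (C47D12.8) encodes the catalytic subunit, on chromosome II from 11696171 to 11705371 and 43441 bp from *rad-23*. Treated libraries had 39.1 and 32.5 FPKM, and control libraries 22.9 and 21.5 FPKM. It was the only member in which the lower bounds of both treated libraries were above the upper bounds of both controls. This gave a log2 fold change of 0.67 (standard error 0.255, 95% interval 0.05 to 1.29), with 0.76 for replicate 1 and 0.58 for replicate 2. This change was larger than that of 94.6% of the genes tested, and its unadjusted limma p of 0.0376 became an adjusted p of 1.00. It was 0.56 with quantile normalization and 0.46 with equal medians, where the groups overlapped.

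*ercc-1* (F10G8.7), which encodes the partner that positions XPF-1 on DNA, lies on chromosome I from 10030174 to 10046760. Its levels were 31.8 and 37.5 FPKM in treated animals against 28.6 and 32.5 FPKM in controls. The groups overlapped, and replicate 2 was above replicate 1 in each. The log2 fold change was 0.17 (standard error 0.244, 95% interval -0.41 to 0.76), and it was -0.034 with equal medians. As in *rad-23*, the deposited condition FPKM had the opposite order to the library means, at 32.8 with cisplatin and 32.96 without, where those means were 34.6 and 30.6. The ratio of *xpf-1* to *ercc-1* within a library, which multiplying a library by a constant cannot change, was 1.23 and 0.867 with cisplatin and 0.799 and 0.662 without. Both treated ratios were above both control ratios, but the ratios were chosen after values were seen. In the other ratios taken the groups overlapped. The ratio of *csb-1* to *xpc-1* was 0.365 and 0.193 with cisplatin and 0.210 and 0.176 without. That of *rad-23* to *xpc-1* was 8.29 and 6.75 against 11.4 and 7.20. That of *xpg-1* to *xpf-1* was 0.321 and 0.647 against 0.393 and 0.868. No difference in ratio was tested, and with 2 libraries a group the smallest two-sided p of an exact permutation test is 0.333.

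*xpg-1* (F57B10.6), the nuclease that cuts on the other side of the lesion, followed the replicate number more than the treatment. It lies on chromosome I from 6558694 to 6562346 with 9 exons. Treated libraries had 12.5 and 21.0 FPKM, and control libraries 8.999 and 18.7 FPKM. Replicate 2 was above replicate 1 by 0.72 on the log2 scale with cisplatin and by 1.01 without, so that the groups overlapped. The log2 fold change was 0.31 (standard error 0.489, 95% interval -0.87 to 1.49). Without control replicate 1 it was -0.20 and without cisplatin replicate 2 it was -0.05.

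**Figure D2:**
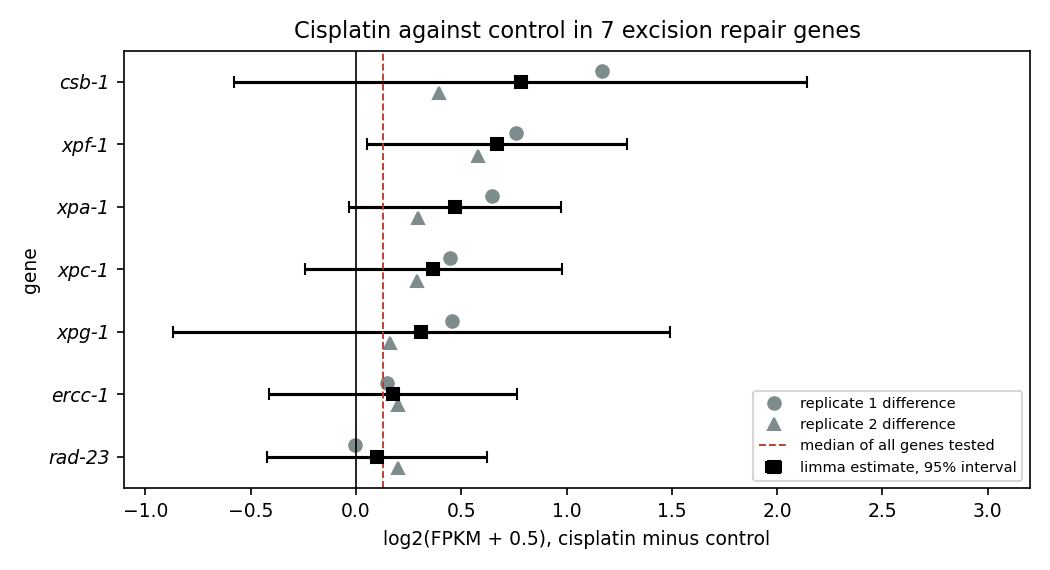
Difference of log2(FPKM + 0.5) between cisplatin and control for each gene, with the limma estimate and its 95% interval as a black square and bar, the difference between same-numbered libraries as grey symbols and the median of all genes tested, 0.13, as a dashed line. The estimates run from 0.10 for *rad-23* to 0.78 for *csb-1*, and the interval of *xpf-1* alone lies above 0, from 0.05 to 1.29.

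Taken over the list, 6 of the 7 genes were higher with cisplatin in both same-numbered pairs, a pattern found in 38.4% of all genes tested, and *rad-23* was the exception. All 7 log2 fold changes were above 0, as were 69.4% of those of all genes. Their median was 0.37, against 0.13 for all genes tested. Between the libraries numbered 1 the median was 0.46, against 0.25 for all genes, and between those numbered 2 it was 0.29, against 0.00 for all genes. The median FPKM of a library was 9.25 and 12.3 with cisplatin and 6.64 and 12.7 in the controls. At an unadjusted limma p of 0.05 the count of members was 1 on the deposited scale and 0 with quantile normalization or with equal medians. Of all 15065 genes, 168 were higher and 67 lower at that level on the deposited scale. The numbers were 204 and 276 with quantile normalization, and 116 and 169 with equal medians. On the deposited scale the count of members was 0 without the intensity trend, where 147 of all genes were higher and 66 lower. It was 2 with a replicate block, where 1043 were higher and 441 lower. With quantile normalization 3 members, *xpa-1*, *xpc-1* and *xpf-1*, had groups that did not overlap, where 12.8% of all genes had this, and with equal medians 0 members did, where 7.79% of all genes had it.

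**Figure D3:**
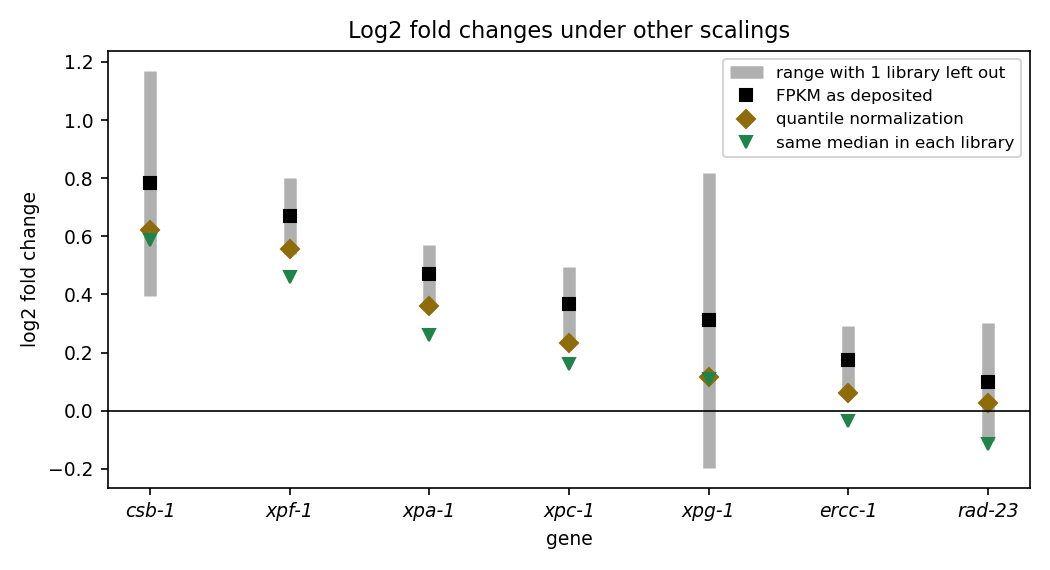
Log2 fold change of each gene with FPKM as deposited (square), with quantile normalization (diamond) and with equal library medians (triangle), and the range with 1 library left out (grey bar). *csb-1*, *xpf-1*, *xpa-1* and *xpc-1* stay above 0 under all of these, whereas *xpg-1*, *ercc-1* and *rad-23* reach values below 0 under at least 1, down to -0.20, -0.034 and -0.11.

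The BH3-only gene *egl-1*, which triggers cell death and is induced by DNA damage through CEP-1, gives a sense of scale in the same libraries. Its log2 fold change was 3.27 (95% interval 1.90 to 4.64), with 26.9 and 17.6 FPKM against 2.35 and 1.36 FPKM. Its adjusted limma p was 0.626. The upper ends of the 95% intervals of the 7 repair genes were between 0.62 for *rad-23* and 2.14 for *csb-1*, so the intervals of *csb-1* and *egl-1* overlap. *ced-13*, a related gene, had 1.45 FPKM in each treated library, and its control libraries are both listed at 0. These values are near the floor, with a mean above only 4.28% of the genes tested. The authors' bounds in cisplatin replicate 1 were 0.21 and 2.57 FPKM. Read as Poisson intervals, the bounds correspond to 5.37 fragments in each treated library.

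Of the 10 genes of TFIIH and its kinase module, 8 were higher in both same-numbered pairs, as were 38.4% of all genes tested. In 3 of the 10 both treated libraries were above both controls, against 15.1% of all genes. None was lower in both pairs, as 2363 of all 15065 genes were. The median log2 fold change of the list was 0.19, against 0.13 for all genes. *xpb-1* (Y66D12A.15), the translocase that helps to open the helix, had 37.02 and 34.5 FPKM in treated and 29.9 and 28.1 FPKM in control libraries, the largest log2 fold change of the list at 0.30. *xpd-1* (Y50D7A.2), the helicase that scans the opened strand, had 20.4 and 21.6 against 18.3 and 18.8 FPKM, also without overlap. *mnat-1*, of the kinase module, was at the other end with 44.7 and 52.2 against 54.03 and 50.4 FPKM.

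Ubiquitin ligase subunits, gap-filling factors and shuttle factors had list medians of 0.12, 0.19 and 0.14 on the log2 scale, beside 0.13 over all genes. Among ligase genes, *rbx-1* had a log2 fold change of 0.08, *csa-1* 0.37, and *ddb-1* could not be tested because its estimate had failed in 2 libraries. Higher in both pairs were 38.4% of all genes tested. Of 8 genes of single-strand binding, gap filling and ligation, 7 were higher in both pairs. The log2 fold changes of these 8 had a median of 0.19 and ran from 0.04 for *rfc-4* to 0.26 for *rfc-1*. All 5 genes for RAD-23 partners and related ubiquitin shuttles were higher in both pairs, but by small amounts, from 0.11 for *ddi-1* to 0.22 for *ubql-1*. *ubql-1*, a ubiquitin shuttle like RAD-23, had 131 and 125 against 105 and 114 FPKM. No gene of these 3 lists or of TFIIH reached an unadjusted limma p of 0.05.

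Other repair pathways held genes with changes of the same size as *csb-1* and *xpf-1*. The counts of genes higher in both pairs stand beside a share of 38.4% over all genes tested. Of 11 genes of translesion, theta-type and crosslink repair, 9 were higher in both pairs and the median was 0.32, with *polq-1*, the polymerase of theta-mediated end joining, at 11.8 and 19.0 against 4.68 and 12.5 FPKM and a log2 fold change of 0.91. *polh-1*, the translesion polymerase eta, was at the other end with 34.9 and 32.7 against 36.0 and 30.9 FPKM. Of 17 genes of homologous recombination and end joining 15 were higher in both pairs, the median was 0.25 and values ran from 0.05 for *brc-1* to 0.54 for *rad-50*. Of 14 checkpoint and mismatch repair genes 9 were higher in both pairs, the median was 0.16, and *chk-1* was highest at 0.48 and *mrt-2* lowest at -0.21. Of 6 base excision repair genes 2 were higher in both pairs and the median was 0.16, with *nth-1* lowest at -0.06 and *parp-1*, the DNA-break sensor that makes poly(ADP-ribose), highest at 0.61.

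*parp-1* was the only gene of these 8 lists with an unadjusted limma p of at most 0.05, and it had 58.7 and 52.6 FPKM with cisplatin against 35.2 and 37.4 FPKM without. Over the 74 genes tested from these lists 25 had treated libraries above both controls, or 33.8%, against 15.1% of all genes, and the median was 0.19. With equal medians the count was 6, or 8.11%, against 7.79% of all genes. On the deposited scale only 2 of the 74 had a larger log2 fold change than *csb-1*, the same number as for *xpf-1*, 8 were above *xpa-1*, and 59 were above *rad-23*. Whether the 7 members differ from these lists was not tested.

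**Figure D4:**
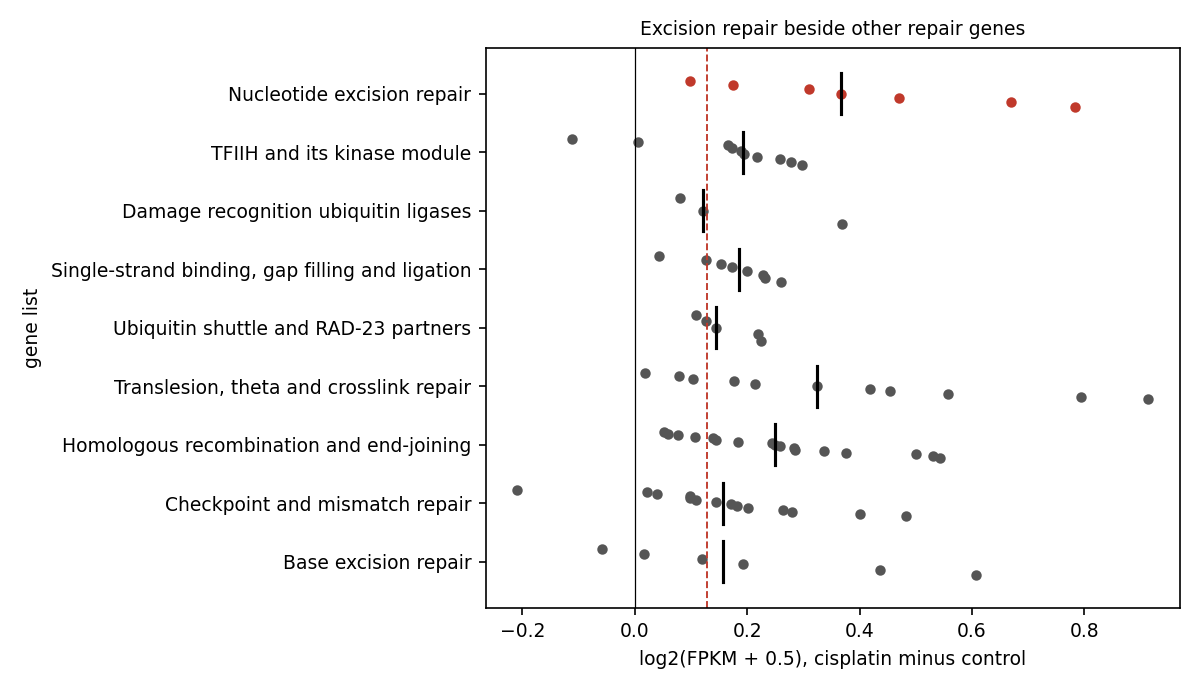
Log2 fold change of each gene (point) in the nucleotide excision repair set (red) and in 8 lists of related or other repair genes (grey), with the median of each list as a short black line and the median of all genes tested as a dashed line. The excision repair genes run from 0.10 to 0.78 with a median of 0.37, and the crosslink repair list reaches 0.91.

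The level profile of each member over the 4 libraries was set beside those of the other repair genes. Likeness was measured as the root mean square distance between log2 profiles centred on their own mean, among 80 genes of the repair lists and members. The nearest to *xpa-1* were *rad-51*, the strand-exchange recombinase, at 0.052 and *parp-1* at 0.074. *parp-1* was also nearest to *xpf-1* at 0.078, followed by *xpa-1* at 0.132. *csb-1* had no close neighbour, its nearest being *xpf-1* at 0.192 and *parp-1* at 0.238. Thus *parp-1* was among the 2 nearest of *xpa-1*, *xpf-1* and *csb-1*. *rad-23* was nearest to *rbx-1* at 0.022 and *msh-2* at 0.024, *xpc-1* to *cku-70* at 0.053 and *mre-11* at 0.066, *xpg-1* to *rev-1* at 0.065 and *atl-1* at 0.078, and *ercc-1* to *png-1* and *clk-2*, each at 0.043. With 4 libraries these distances are descriptions only.

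The stage and tissue composition of the populations was read from marker lists. Moulting genes, which mark larvae, summed to 186 and 555 FPKM in cisplatin replicates 1 and 2 and to 171 and 629 FPKM in the controls, so they followed the replicate number. Over all genes tested, the median log2 difference of replicate 2 from replicate 1 was also above 0, at 0.28 with cisplatin and 0.64 in the controls. For the moulting genes it was 1.55 and 1.87. Among the members *xpg-1*, *ercc-1* and *xpc-1* were higher in replicate 2 of both groups. Only *xpg-1*, at 0.72 and 1.01, exceeded the median of all genes. *ercc-1*, at 0.23 and 0.18, and *xpc-1*, at 0.09 and 0.25, were under it in both groups. By contrast *rad-23*, *xpf-1* and *csb-1* were higher in replicate 1 of both groups, *csb-1* only barely so in the controls. *xpa-1* was higher in replicate 1 with cisplatin and in replicate 2 without. All 10 germline markers were measured and summed to 1256 and 1199 against 1294 and 1094 FPKM, which overlap. The largest part of this sum was *gld-1*, at 530 and 435 against 684 and 414 FPKM. By gene, 9 of the 10 had a log2 fold change above 0, as had 69.4% of all genes, and *gld-1* was the exception. In 5 of the 10 both treated libraries were above both controls, against 15.1% of all genes. The 7 oocyte markers tested, of 10, summed to 2678 and 2027 against 2710 and 1801 FPKM. The 11 sperm markers were lower with cisplatin in sum, at 170 and 248 against 340 and 429 FPKM. Most of that sum was *ssp-9*, at 69.2 and 94.8 against 151 and 168 FPKM, and *ssp-10*, at 52.9 and 62.2 against 118 and 117 FPKM. By gene, all 11 log2 fold changes were below 0, where 69.4% of all genes were above 0. Lower in both pairs were 9 of the 11, as were 2363 of all 15065 genes. In 5 of the 11 both treated libraries were below both controls, against 4.21% of all genes. The 6 yolk genes were also lower in sum, at 17217 and 17015 against 22946 and 20458 FPKM. Each of the 6 was lower in both pairs, and in 5 both treated libraries were below both controls. No marker with valid estimates was at 0 in any library, and the oocyte marker *egg-1*, left out of the sum, had a failed estimate listed at 0 in control replicate 1. The part of this composition in the values of the repair genes was not tested.

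The position of the members bears on how well reads can be assigned to them. *ercc-1* overlaps the gene *nubp-1* on the same strand over 319 bp, of which 5 bp are exonic in *ercc-1*, and overlaps *ncs-2* on the opposite strand within introns. *xpf-1* holds *inos-1* on the opposite strand over 1984 bp, within introns. The other 5 members overlap no annotated gene. For *csb-1* and *rad-23* the deposited table lists intervals of 125 and 250 bp, far shorter than the genes. That of *rad-23*, from 11652657 to 11652906, also runs past the annotated end of the gene at 11652729. The exon model behind the FPKM of either gene is thus not given. The coordinates and overlaps above are those of the annotation.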

How the data were processed

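Poly(A) RNA of 4 N2 populations was sequenced in paired ends. The authors aligned reads to WBcel235 with TopHat, removed those that mapped to several sites and quantified genes with Cufflinks and Cuffdiff within SeqSolve, and the submitters' processing notes name TopHat, Cufflinks and Cuffdiff without versions. The deposited FPKM values were made by the authors, with bounds per library and a value per condition. They are not counts. Deposited fold changes, test statistics, p-values and q-values, for expression and for splicing, are the authors' comparisons and were not used. Library columns were matched to samples by name. Labels give 60 µg/ml in the treatment field, while a shared protocol text gives another dose, and the former was used. Strand use in counting is not given in the sources used here.

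The test took the 15065 genes whose 4 libraries averaged 0.5 FPKM or more with every estimate valid, which left out 88 with a failed estimate and 255 under the minimum. All 7 members passed. On the scale of log2(FPKM + 0.5), groups were compared in limma 3.58.1 (R 4.3.3) with a mean-variance trend and Benjamini-Hochberg adjustment over all genes at 0.05. This scale understates changes of low genes. Intervals are limma's, at 95%. P-values rest on the spread between these libraries, with the variance of each gene drawn towards that of genes at a similar level. They do not measure the spread of that gene alone. The values give no fragment numbers, which were estimated as 1.96 standard deviations of a Poisson count from the authors' bounds, within which 89.4% to 90.4% of FPKM values lie. Coordinates come from Ensembl release 115 of WBcel235, and current symbols from the RefSeq table of the same assembly, which matched 15230 of 15408 IDs. Named genes were the members, *xpb-1*, *xpd-1*, *csa-1*, *ddb-1*, *egl-1*, *ced-13*, both ends of each list and the 2 nearest profiles of each member. Members and lists were chosen with earlier results of these data known, and the within-library ratios after values were seen. Alternatives were the pseudocount, the filter, the scaling, the trend, a replicate block, failed estimates kept at 0 and each library left out.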

Additional observations from a re-analysis of the deposited data

How the results depend on the processing

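No adjusted limma p of the 7 repair genes was under 0.05 with any of the 14 alternatives, and their log2 fold changes kept their sign except where stated. Equal library medians put *ercc-1* at -0.034 and *rad-23* at -0.11. Leaving out 1 library, *rad-23* ranged from -0.10 to 0.30, *xpg-1* from -0.20 to 0.82 and *csb-1* from 0.40 to 1.17. The lone library of a group was then assumed to vary like the other group. The median of the 7 was 0.23 with quantile normalization and 0.16 with equal medians, ranged from 0.30 to 0.55 with 1 library left out, and relative to all genes from 0.12 to 0.45. The number of members with groups that do not overlap fell from 4 to 3 with quantile normalization and to 0 with equal medians. Counting it on these scales was chosen after the data were examined, as was 1 fit with the block and no trend.

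Over all genes 0 passed in the fit as reported, 1 passed with a pseudocount of 1 FPKM and 0 to 21 with 1 library left out. A replicate block gave 369 genes, and none of the members. The smallest adjusted limma p of the members was 0.063 for *xpf-1*, then 0.166 for *xpa-1*. These were the 2 members with an unadjusted limma p of at most 0.05 in that fit. At that level 1043 of all 15065 genes were higher and 441 lower. The block without the intensity trend gave 0 genes and an adjusted p of 0.706 for *xpf-1*. Deviations of same-numbered libraries from their group means correlated at 0.59 over 15065 genes, but the labels do not say that a number marks a shared culture or day, and the paper's description of biological replicates does not say which libraries were grown together.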

Other observations

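Some genes that act beside excision repair differed more between replicates than between treatments. *rad-50*, of the complex that tethers broken ends, had 9.89 and 33.0 FPKM in cisplatin replicates 1 and 2 and 4.40 and 32.9 FPKM in the controls, and *him-18*, a nuclease scaffold, had 14.5 and 25.9 against 9.24 and 28.0 FPKM. *apn-1*, an endonuclease of base excision repair, had 36.1 and 49.2 against 18.7 and 51.1 FPKM. In all 3 the treated library exceeded the control in replicate 1 only, or by far more than in replicate 2. These genes were chosen after their values were seen.

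Zeros in the table need not mean absent transcripts. *pcn-1*, which encodes the replication clamp PCNA, is listed at 495 FPKM in cisplatin replicate 1 and its estimate failed in the other 3 libraries, where it is listed at 0. *ddb-1*, the damage-binding ligase adaptor, had 33.8 and 24.2 FPKM in the libraries numbered 1 of cisplatin and control, and its estimate failed in both libraries numbered 2.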
